A study of Mus musculus with 12 samples.

Results

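The genes described here handle arginine and the polyamines made from it. They were named as a fixed set of 10 genes: Arg1, Arg2, Nos2, Slc7a2, Ass1, Asl, Odc1, Srm, Sms and Sat1. Each was to be read from its own probe set on the array, the one with the highest mean where a gene had several. Of the 10 genes, 8 had a probe set of their own, 1 each, among 30475 genes that could be named on the array. Ass1 (argininosuccinate synthase) and Sms (spermine synthase) are each listed only on a probe set shared with another locus, so no value is given for them. Of those 8 genes, 7 were above the array's median on at least 3 arrays and entered the tests among 18122 genes in all; these 7 were above it on all 12 arrays. Slc7a2 lay below the median on all 12 arrays and was not tested.

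Arginine is the branch point of a pair of competing routes in macrophages. Nitric oxide synthase turns it into nitric oxide and citrulline, and arginase turns it into ornithine and urea. Ornithine decarboxylase then makes putrescine, which spermidine synthase and spermine synthase extend into the longer polyamines, while an acetyltransferase marks them for breakdown or export. In mouse macrophages, nitric oxide synthase is the classical mark of activation by bacterial products and interferon, and arginase that of activation by interleukin 4 and of many macrophages in tumours.

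RAW264.7 is a mouse macrophage-like line that grows continuously in culture. Its total RNA was measured on Affymetrix arrays after culture in 4 media, 3 arrays each. KO medium came from PyMT-41C cells, the tumour cells of the study, with JMJD6 knocked out, and RAW264.7 cells received it mixed 50:50 with RPMI holding 10% fetal bovine serum for 24 hours. SCR medium came from SCR PyMT-41C cells, which stand as the control of the knockout, and was given in the same way. SCR medium with CSH was SCR medium to which CSH, named in the labels as a blockade of the ANXA-1 (annexin A1) receptor, had been added. Normal medium held no tumour cell medium. The knockout was in the cells that conditioned the medium, not in the RAW264.7 cells measured. All 4 groups are 1 cell line, and the labels do not say whether the knockout was a single clone, at what dose CSH was used, or whether arrays of a group came from separate cultures; p-values then measure only the spread between these arrays. CSH was not given in normal medium or in KO medium. Single arrays are named by medium and label number, such as KO 2, CSH 1 for SCR medium with CSH, or NM 3 for normal medium.

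The values are log2 expression levels, in which a difference of 1 is a doubling. The array medians were between 5.40 and 5.52, and arrays of the same group correlated at 0.996 to 0.998 over all probe sets. Of 10 macrophage markers, 9 lay above the array median on every array, with Mertk the exception. The 10 summed to 122.12 to 123.25 in KO medium, 121.29 to 123.86 in SCR medium with CSH, 121.54 to 122.88 in SCR medium and 124.23 to 124.92 in normal medium. Single markers went both ways from normal to SCR medium. Csf1r averaged 13.70 and 11.90 and Adgre1 11.24 and 9.79, whereas Itgam averaged 14.03 and 15.00 and Cd14 12.83 and 13.44. The epithelial marker Epcam lay at 4.64 to 4.76 in the 4 group means. The 9 epithelial markers summed to 44.57 to 44.64 in KO medium and 44.60 to 44.73 in SCR medium with CSH. They summed to 44.24 to 45.06 in SCR medium and 44.21 to 44.44 in normal medium. PyMT-41C cells themselves were not measured, so whether these markers would show carried-over tumour cells was not tested. The 6 neutrophil markers summed to 35.82 to 36.36 in KO medium, 35.03 to 35.62 in SCR medium with CSH, 34.69 to 35.70 in SCR medium and 32.70 to 33.25 in normal medium. That sum followed S100a8, with means of 8.30 in KO medium, 7.54 in SCR medium with CSH, 7.28 in SCR medium and 5.06 in normal medium. Ly6g, which defines neutrophils, was at 5.65 in KO medium, 5.63 in SCR medium with CSH, 5.79 in SCR medium and 5.89 in normal medium. S100a8 was thus higher in the media in which several genes below were higher, and its part in those results was not tested. In bulk RNA, fewer cells that express a gene and less RNA per cell cannot be told apart.

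Arg1 and Arg2 are the arginases. Arg1 (chromosome 10, 24915207 to 24927470, GRCm38.p6) encodes the cytosolic enzyme. Its log2 level was 7.79, 8.08 and 8.14 in KO medium, 6.45, 6.76 and 6.63 in SCR medium with CSH, 6.63, 6.98 and 7.13 in SCR medium, and 6.16, 5.95 and 5.99 in normal medium. All 3 KO arrays lay above all 9 other arrays, all 3 normal-medium arrays lay below all 9 others, and the arrays of SCR medium with and without CSH overlapped. Arg1 rose in KO medium against SCR medium by 1.09 on the log2 scale (SE 0.13, 95% interval 0.81 to 1.37, 2.13-fold, limma adjusted p = 0.00361). It also rose in SCR medium against normal medium, by 0.88 (SE 0.13, 0.60 to 1.16, 1.84-fold, adjusted p = 0.000156). Both differences passed the test in every alternative processing and without any single array.

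Across the whole range, Arg1 was 3.92-fold higher in KO medium than in normal medium (log2 change 1.97, 1.69 to 2.25, adjusted p = 1.4e-07). It was 2.62-fold higher in KO medium than in SCR medium with CSH (1.39, adjusted p = 0.000195). With CSH, Arg1 averaged 6.61 ± 0.16 against 6.91 ± 0.26 in SCR medium without it (SD, n = 3 each), a difference of -0.30 with an interval of -0.58 to -0.02 and an adjusted p of 0.781. That difference passed only before adjustment for the genes tested. Against normal medium, Arg1 still rose in SCR medium with CSH, by 0.58 (adjusted p = 0.00333).

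Arg2 (chromosome 12, 79130788 to 79156301) encodes the mitochondrial arginase. Its level was 7.27, 7.21 and 7.19 in KO medium, 7.07, 7.55 and 6.87 in SCR medium with CSH, 6.86, 6.90 and 6.88 in SCR medium, and 5.91, 6.18 and 6.17 in normal medium. Every array with conditioned medium lay above every array with normal medium. Arg2 rose in SCR medium against normal medium by 0.79 (SE 0.13, 0.50 to 1.08, 1.73-fold, adjusted p = 0.000442). Its 3 KO arrays lay above its 3 SCR arrays, by 0.34 on average (0.05 to 0.63), but with an adjusted p of 0.704 this difference did not pass the test. In SCR medium with CSH the arrays spread from 6.87 to 7.55, overlapping both the KO and the SCR arrays.

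**Figure D1:**
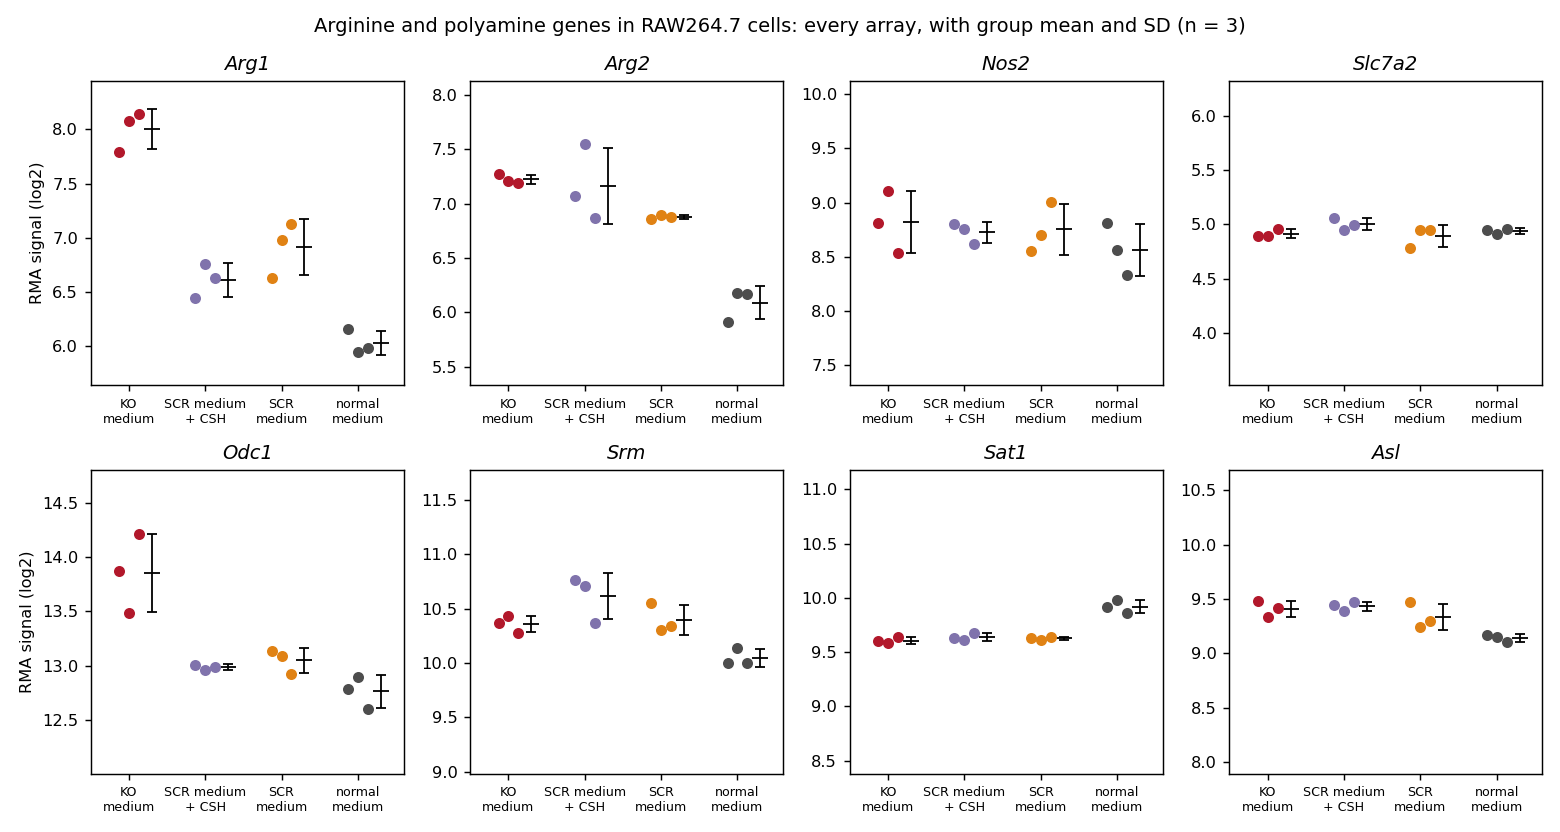
Log2 expression of the 8 genes with a probe set of their own, 1 panel a gene, with 1 point an array and a bar at the mean of the 3 arrays of each medium. Arg1 and Odc1 have their 3 KO arrays above all 9 other arrays, Nos2 overlaps in all 4 media, and Sat1 is higher in normal medium.

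Nos2 (chromosome 11, 78920787 to 78960226) encodes the inducible nitric oxide synthase, which competes with arginase for arginine. Its level was 8.81, 9.11 and 8.54 in KO medium, 8.80, 8.76 and 8.62 in SCR medium with CSH, 8.55, 8.70 and 9.01 in SCR medium, and 8.81, 8.56 and 8.33 in normal medium. The arrays of all 4 media overlapped. Nos2 differed by 0.07 between KO medium and SCR medium (-0.27 to 0.40, adjusted p = 0.995) and by 0.19 between SCR medium and normal medium (-0.15 to 0.52, adjusted p = 0.402). Weighting each array by its agreement with the others moved the difference between SCR and normal medium to 0.38, with an adjusted p of 0.0399. SCR 4, the highest SCR array for Nos2 at 9.01, was given a weight of 6.15. SCR 1 was given 0.53 and SCR 3 was given 0.39, so the weighted SCR mean rests mostly on SCR 4. Over all alternatives the adjusted p for this difference ranged from 0.0399 to 0.838. Nos2 was the 1 member of the 7 tested that did not pass a test across all 4 media, where 36.1% of all genes passed.

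Slc7a2 (chromosome 8, 40862341 to 40922070) encodes a cationic amino acid transporter that carries arginine into macrophages. Its level was 4.89, 4.89 and 4.96 in KO medium, 5.06, 4.95 and 4.99 in SCR medium with CSH, 4.78, 4.95 and 4.95 in SCR medium, and 4.95, 4.91 and 4.96 in normal medium. With every array below its median, these values are given as levels only.

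Odc1 (chromosome 12, 17544808 to 17551502) encodes ornithine decarboxylase, the enzyme that takes the product of arginase into the polyamines. Its level was 13.87, 13.49 and 14.21 in KO medium, 13.01, 12.96 and 12.99 in SCR medium with CSH, 13.14, 13.09 and 12.92 in SCR medium, and 12.79, 12.90 and 12.60 in normal medium. The 3 KO arrays were above all 9 others and also spread most, with an SD of 0.36. Odc1 rose in KO medium against SCR medium by 0.81 (SE 0.14, 0.50 to 1.11, 1.75-fold, adjusted p = 0.0323). Without single arrays the change was between 0.63 and 0.99, and the adjusted p ran from 0.00313 to 0.162 and stayed below 0.05 only without KO 2, NM 3 or NM 4. The call was also lost without a filter on low values (0.0667) and with the 6 arrays of the comparison alone (0.14). It rose in KO medium also against SCR medium with CSH, by 0.87 (1.83-fold, adjusted p = 0.00912, or 0.0546 with 6 arrays alone), and against normal medium, by 1.09 (2.13-fold, adjusted p = 4.05e-05). SCR medium against normal medium gave 0.29, with all SCR arrays above all normal-medium arrays and an adjusted p of 0.14. That p ranged from 0.041 to 0.377 over all alternatives, and was below 0.05 without KO 2, without KO 3 or with 6 arrays alone.

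The bases before the gene record of Odc1 are shown because Odc1 and Arg1 were the members that rose in KO medium against SCR medium. Those of Sat1 are shown because it was the member that fell with conditioned medium. Both come from RefSeq on GRCm38.p6, whose promoter table holds 4 of the 10 genes, Odc1, Ass1, Sms and Sat1. Each line gives 100 bases, 5′ to 3′ on the gene's strand, ending at the base before the gene record, and capitals mark a motif.
Odc1, chr12:17544708-17544807, plus strand: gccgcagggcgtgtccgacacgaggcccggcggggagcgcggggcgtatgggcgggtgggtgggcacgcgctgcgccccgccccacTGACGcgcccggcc
Sat1, chrX:155216450-155216549, minus strand: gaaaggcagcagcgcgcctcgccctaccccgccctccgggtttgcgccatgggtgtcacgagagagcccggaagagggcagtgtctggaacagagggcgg
Windows of 250 bases before and 50 bases after the start were searched on both strands for TGACG, the core of the cAMP response element, which was in 20.8% of all 32851 windows. The other motifs searched were TGACGTCA, the full element, which contains the core (1.79% of windows), TGANTCA of AP-1 (7.81%), CACGTG, the E-box (7.15%), TTGCNNAA of C/EBP (10.8%), ACGTG of the hypoxia response, which lies within the E-box (19.6%), and TGATGNAA of the paired C/EBP and ATF element (3.97%). The Odc1 window held 1 match, the core TGACG that begins 14 bases before the gene record, and the Sat1 window held 0. The start used for the Odc1 window lies inside the gene record, and the match begins 79 bases before that start. These matches describe the letters in these windows.

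Srm (chromosome 4, 148591513 to 148594619) encodes spermidine synthase. Its level was 10.37, 10.43 and 10.28 in KO medium, 10.76, 10.71 and 10.37 in SCR medium with CSH, 10.55, 10.30 and 10.34 in SCR medium, and 10.00, 10.14 and 10.00 in normal medium. All 9 conditioned-medium arrays lay above the 3 normal-medium arrays. Srm rose in SCR medium against normal medium by 0.35 (SE 0.10, 0.13 to 0.57, adjusted p = 0.0162), a call lost without NM 2, NM 4 or SCR 1, where the adjusted p reached 0.0727. KO medium against SCR medium gave -0.04 (-0.26 to 0.18, adjusted p = 0.995). SCR medium with CSH held the highest mean, 10.61 ± 0.21, against 10.40 ± 0.13 in SCR medium, a difference of 0.22 (adjusted p = 0.809) that did not pass the test.

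Sat1 (chromosome X, 155213126 to 155216449) encodes the acetyltransferase that starts the breakdown of spermidine and spermine. Its level was 9.60, 9.58 and 9.64 in KO medium, 9.63, 9.61 and 9.68 in SCR medium with CSH, 9.63, 9.61 and 9.64 in SCR medium, and 9.92, 9.98 and 9.86 in normal medium. The 9 conditioned-medium arrays lay within 0.10 of each other and all below the 3 normal-medium arrays. Sat1 fell in SCR medium against normal medium by 0.29 (change -0.29, SE 0.05, -0.41 to -0.18, adjusted p = 0.000826). Between KO medium and SCR medium it differed by -0.02 (-0.14 to 0.10, adjusted p = 0.995), and between SCR medium with and without CSH by 0.01 (-0.10 to 0.13, adjusted p = 0.99).

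Asl (chromosome 5, 130011258 to 130024381) encodes argininosuccinate lyase, which works with argininosuccinate synthase to remake arginine from citrulline. Its level was 9.48, 9.33 and 9.42 in KO medium, 9.44, 9.39 and 9.47 in SCR medium with CSH, 9.47, 9.24 and 9.30 in SCR medium, and 9.17, 9.15 and 9.10 in normal medium. The normal-medium arrays were the 3 lowest. Asl rose in SCR medium against normal medium by 0.20 (SE 0.07, 0.05 to 0.34, adjusted p = 0.0387), a call lost without NM 2, NM 3, NM 4, SCR 1, SCR 4 or CSH 1, with a change of 0.13 and an adjusted p of 0.151 without SCR 1, and also without a filter (0.0612), after median centring (0.137) and with 6 arrays alone (0.0952). In KO medium it also rose against normal medium, by 0.27 (adjusted p = 0.00632), and in SCR medium with CSH by 0.29 (adjusted p = 0.00439). Ass1, the enzyme before it, is on chromosome 2 at 31470270 to 31520670, and Sms, the enzyme after spermidine synthase, is on chromosome X at 157443851 to 157492287.

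Counted together, 4 of the 7 tested members rose in SCR medium against normal medium (Arg1, Arg2, Asl and Srm) and 1 fell (Sat1), where 35.2% of all 18122 genes passed the test, 19.3% higher and 15.8% lower. Arrays of SCR medium did not overlap those of normal medium for 6 of the 7 members, against 43.3% of all genes. The median change of the 7 members was 0.29, against 0.02 over all genes. In KO medium against SCR medium 2 members rose, Arg1 and Odc1, and 0 fell, where 0.27% of all genes passed, 0.254% higher and 0.0166% lower. At an unadjusted p under 0.05, 3 members and 5.95% of all genes passed. Arrays of KO and SCR medium did not overlap for 3 members, Arg1, Arg2 and Odc1, against 9.38% of all genes, and the median member change was 0.07. These comparisons share the SCR arrays. The members were chosen with earlier results of these data known, so the contrasts with all genes are a description.

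SCR medium with CSH against SCR medium gave 0 of the 7 members past the test, and limma called 0 of all 18122 genes, or 0%. At an unadjusted p under 0.05, 1 member (Arg1) and 1131 genes (6.24%) passed, and with weighted arrays limma called 79 genes, none of them a member. The arrays of all 7 members overlapped between these media, against 8.59% of all genes whose arrays did not. The largest member differences were -0.30 for Arg1 and 0.28 for Arg2, with 95% intervals in the reported fit that reach -0.58 and 0.57. These intervals are for single genes and are not adjusted for the number of genes. The Arg2 value was 0.09 without CSH 2, its highest array at 7.55, and 0.43 without CSH 4. The Arg1 value was -0.19 without SCR 4, -0.44 without SCR 1 and -0.46 with weighted arrays. Its lowest limma adjusted p over all alternatives was 0.0806.

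In KO medium against normal medium 5 members rose (Arg1, Arg2, Odc1, Asl and Srm) and Sat1 fell, where 39.1% of all genes passed, 21.4% higher and 17.6% lower. Srm rose there by 0.31 (adjusted p = 0.0259), a call lost without NM 2, NM 4, KO 1 or KO 2, with an adjusted p of up to 0.0863, and after median centring (0.0556). In SCR medium with CSH against normal medium 4 rose (Arg1, Arg2, Asl and Srm) and Sat1 fell, where 35.9% passed, 20.9% higher and 14.9% lower. Arrays did not overlap for 6 members in each of these comparisons, against 49.8% of all genes in the KO comparison and 46.8% in the CSH comparison, which share the normal-medium arrays. Arg1 and Odc1 rose in KO medium against SCR medium with CSH, and 0 fell, where 1.9% of all genes passed, 1.21% higher and 0.695% lower. Arrays did not overlap for these 2 members, against 21.8% of all genes. Srm gave -0.25 in that comparison (-0.47 to -0.03), which did not pass after adjustment (adjusted p = 0.253).

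**Figure D2:**
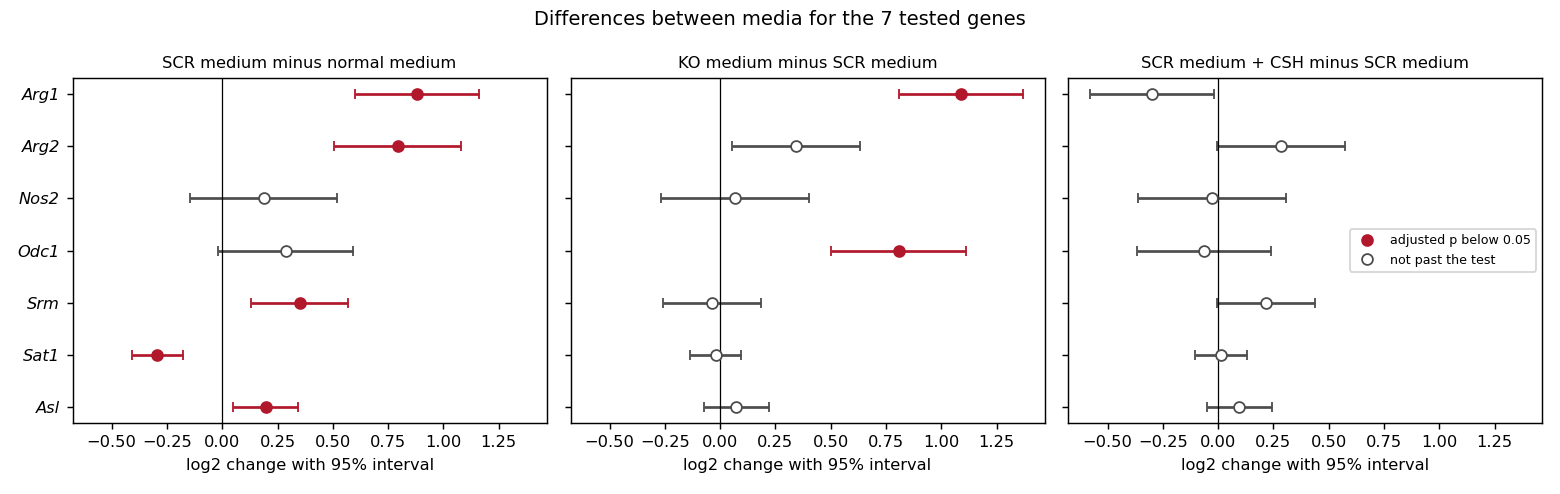
Log2 change of the 7 tested members with 95% intervals, for SCR medium over normal medium, KO medium over SCR medium and SCR medium with CSH over SCR medium; filled points passed the test. Arg1 is to the right of 0 and filled in the first and second panels, Odc1 is filled in the second, and no point is filled in the third.

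The members did not vary as 1 unit across arrays. Pearson's r with Arg1 over the 12 arrays was 0.88 for Odc1, 0.71 for Arg2 and -0.72 for Sat1, and 0.52 for Asl, 0.47 for Nos2 and 0.25 for Srm. Within the 9 arrays of conditioned media, r was 0.85 for Odc1, 0.35 for Arg2, -0.46 for Sat1 and -0.58 for Srm. The points share their media and their array processing, and these values are a description. Over these 9 arrays r stayed high for Odc1, with the KO arrays highest for both genes, and was smaller for Arg2. Inside SCR medium, and inside SCR medium with CSH, Odc1 was lower at higher Arg1, over 3 arrays each. The KO and normal-medium arrays showed no steady order. In SCR medium Odc1 was 13.14, 13.09 and 12.92 at Arg1 levels of 6.63, 6.98 and 7.13. In SCR medium with CSH it was 13.01, 12.99 and 12.96 at 6.45, 6.63 and 6.76. In KO medium it was 13.87, 13.49 and 14.21 at 7.79, 8.08 and 8.14, so KO 3 was highest for both genes. In normal medium it was 12.90, 12.60 and 12.79 at 5.95, 5.99 and 6.16.

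**Figure D3:**
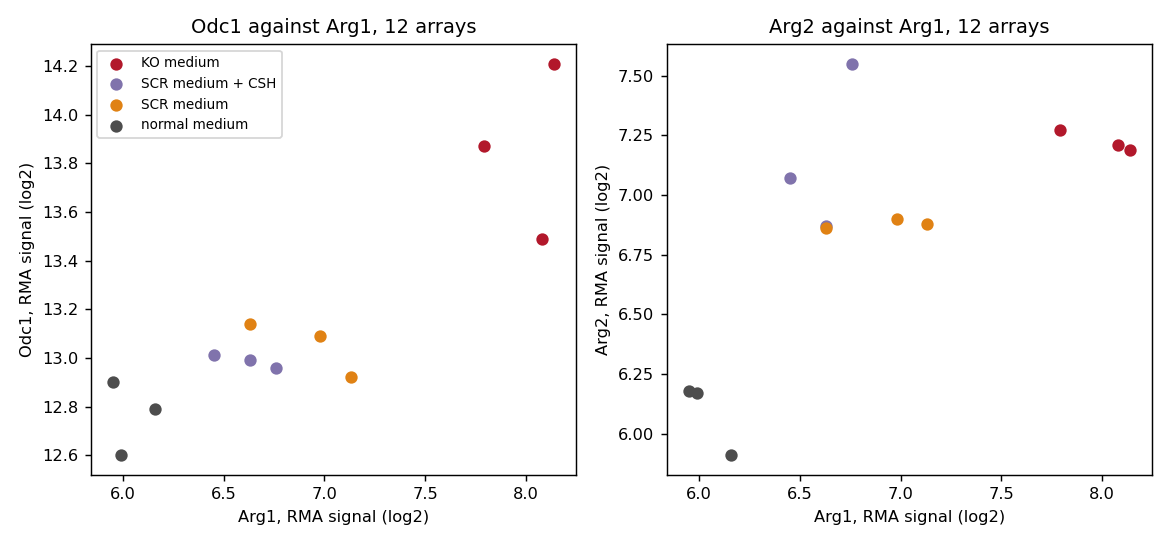
Log2 level of Odc1 and of Arg2 in each array, plotted against that of Arg1 in the same array, coloured by medium. Odc1 is highest in the 3 KO arrays, which are also the highest for Arg1, whereas Arg2 in SCR medium with CSH spans 6.87 to 7.55 at Arg1 levels of 6.45 to 6.76 (1 of these points is nearly hidden by an SCR point).

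The 5 named genes most like Arg1 over the 12 arrays, by Pearson's r, were Hbegf (0.97), Blcap (0.97), Pdpn (0.96), Alcam (0.96) and Ccl2 (0.96). Hbegf encodes a heparin-binding growth factor of the EGF family, Pdpn the membrane glycoprotein podoplanin, Alcam a cell adhesion molecule and Ccl2 a chemokine that draws monocytes. Hbegf averaged 7.45 in KO medium, 6.50 in SCR medium with CSH, 6.55 in SCR medium and 5.72 in normal medium, and Pdpn averaged 9.08 in KO medium, 7.89 in SCR medium with CSH, 7.85 in SCR medium and 6.72 in normal medium. Within the 9 conditioned-medium arrays the 5 most alike were Blcap (0.98), Clec10a (0.97), Vegfa (0.96), Ccr1 (0.96) and Kdm6b (0.96), of which only Blcap is in both lists.

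Other genes of these pathways were taken from 5 lists with 75 genes in all, of which 47 were tested and 10 had no probe set of their own. Over all genes tested, 19.3% rose and 15.8% fell in SCR medium against normal medium, and 0.254% rose and 0.0166% fell in KO medium against SCR medium. Of 11 tested genes of polyamine synthesis, breakdown and hypusination, 2 rose and 4 fell in SCR medium against normal medium, and the median change was -0.02. Dhps, which starts the hypusine modification of the translation factor eIF5A with spermidine, rose by 1.01 (adjusted p = 5.87e-06). The lysosomal polyamine transporter gene Atp13a2 fell by 0.82 (change -0.82) and Azin2, an antizyme inhibitor gene, by 0.33 (change -0.33). Atp13a3, of the same list, also fell, from a mean of 10.70 in normal medium to 10.22 in SCR medium (limma adjusted p = 0.000874). In KO medium against SCR medium 1 of the 11 rose, Smox, which encodes spermine oxidase. Smox was at 9.78, 9.71 and 9.64 in KO medium, against 9.34, 9.30 and 9.40 in SCR medium, a change of 0.36 (SE 0.06, adjusted p = 0.0207). Without SCR 1, SCR 3, SCR 4, KO 1 or KO 2 its adjusted p reached up to 0.128 and the call was lost. Azin1 gave 0.17 (adjusted p = 0.686) and Dhps 0.24 (adjusted p = 0.749) in the same comparison.

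Of 9 tested genes for arginine, ornithine, proline and creatine, 2 rose and 3 fell in SCR medium against normal medium, and 0 passed in KO medium against SCR medium. Slc6a8, the creatine transporter gene, rose by 1.45 (adjusted p = 4.8e-07) and Aldh18a1, whose enzyme starts proline and ornithine synthesis from glutamate, by 0.69. The creatine synthesis genes Gatm and Gamt had changes of -0.82 and -0.47 and both fell. Nos1, another nitric oxide synthase gene, also fell, from a mean of 8.98 in normal medium to 8.45 in SCR medium (limma adjusted p = 0.00102). It averaged 8.41 in KO medium and 8.06 in SCR medium with CSH. Slc6a8 gave 0.42 in KO medium against SCR medium (adjusted p = 0.215). Of 7 tested transport genes, Slc7a1, the general arginine transporter gene, and Slc3a2 rose by 0.65 and 0.51 in SCR medium against normal medium, and Slc7a4 and Slc7a7 fell (changes -0.65 and -0.31). None of the 7 passed in KO medium against SCR medium, where Slc7a1 gave 0.18 (adjusted p = 0.797).

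Tetrahydrobiopterin is the cofactor of nitric oxide synthase, and of 6 tested genes for it 3 rose and 1 fell in SCR medium against normal medium. Gch1, which encodes the first and rate-limiting enzyme, rose by 1.66 (adjusted p = 1.67e-07), and Gchfr, its feedback regulator gene, fell (change -0.47). Nos2 itself gave 0.19 in the same comparison, as above. None of the 6 passed in KO medium against SCR medium, where Gch1 gave 0.36 (adjusted p = 0.347).

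Of 14 tested genes for transcription factors and receptors known to act on these members, 8 rose and 1 fell in SCR medium against normal medium, with a median change of 0.28 against 0.02 over all genes. Il4ra, the interleukin 4 receptor gene, rose by 2.27 and Fosl2, an AP-1 subunit gene, by 2.02. In KO medium against SCR medium 3 of the 14 rose and 0 fell, against 0.254% and 0.0166% of all genes. The list was chosen with earlier results of these data known, so this contrast is a description. Il4ra averaged 10.97 ± 0.09 in KO medium and 10.35 ± 0.14 in SCR medium (change 0.62, adjusted p = 0.0079). Crem, a regulator of cAMP-responsive genes, rose by 0.66 (adjusted p = 0.015) and Fosl2 by 1.05 (adjusted p = 0.0165). The call for Crem was lost without SCR 3, SCR 4, KO 1 or KO 3, and that for Fosl2 without SCR 1, SCR 3, KO 1 or KO 3, with adjusted p up to 0.0929 for each. Myc, which drives Odc1 in many cells, gave 0.41 (adjusted p = 0.141).

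SCR medium with CSH against SCR medium gave 0 of the 47 tested list genes past the limma test. The smallest adjusted p in each list was 0.77 for polyamine genes (Azin2, 0.15), 0.619 for arginine genes (Nos1, -0.39), 0.77 for transport genes (Slc3a2, 0.19), 0.77 for cofactor genes (Gchfr, 0.19) and 0.723 for regulators (Max, 0.15).

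**Figure D4:**
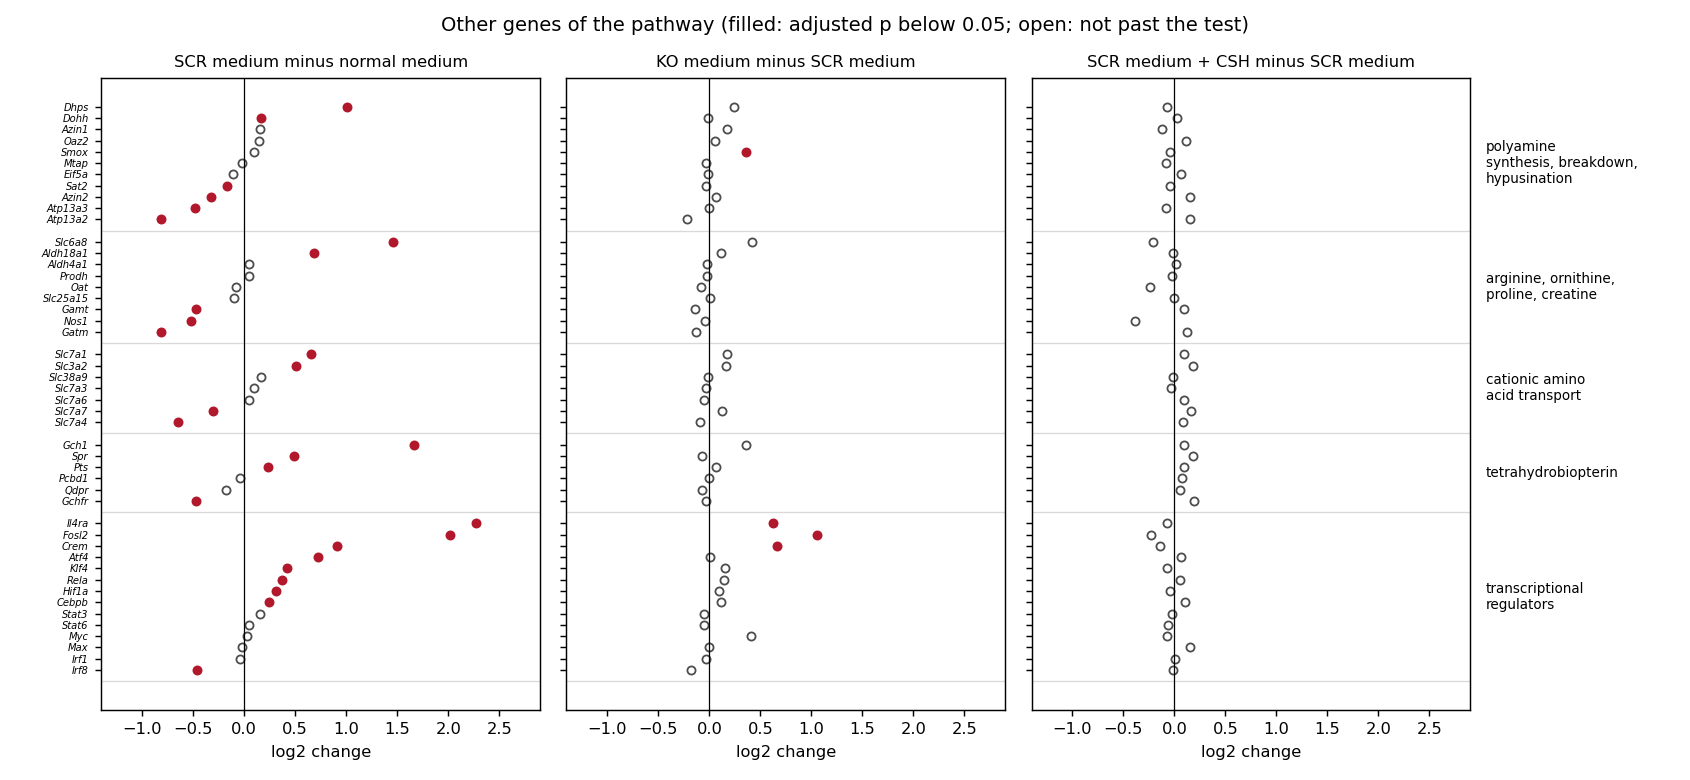
Log2 change of the tested genes of the 5 pathway lists, 1 point a gene, for SCR medium over normal medium, KO medium over SCR medium and SCR medium with CSH over SCR medium; filled points passed the test. The largest changes in SCR medium over normal medium are those of Il4ra (2.27) and Fosl2 (2.02), and in KO medium over SCR medium 4 list genes, Fosl2, Crem, Il4ra and Smox, passed.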

How the data were processed

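Total RNA of 12 samples was labelled with biotin and hybridised to Affymetrix arrays, per the labels' protocols. The deposited values are log2 expression levels that the authors made with RMA in Affymetrix Expression Console, per the submitters' processing notes, which name mm10. Tool versions, and whether probes were filtered or batches adjusted, are not given in sources used here. Of 65528 probe sets, 31029 had 1 gene symbol in the platform annotation, 1467 had several and 33032 had none listed. Symbols were updated through RefSeq (GRCm38.p6), and a gene with several probe sets took the one with the highest mean. Genes above the array median on at least 3 arrays were tested.

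limma 3.58.1 in R 4.3.3 fitted a mean per medium over all 12 arrays with a trend of spread on intensity, on 8 residual degrees of freedom, with Benjamini-Hochberg adjustment over 18122 genes and an adjusted p below 0.05. On simulated data for KO medium against SCR medium over 18122 genes, 88 of 100 changes of 0.58 and 98 of 100 changes of 1 were called, with 4 false calls. These rates need not hold for a gene whose arrays spread more, or with fewer changed genes, and the reported fit called 49. In KO medium against SCR medium the SE was 0.13 for Arg1 and Arg2, 0.14 for Odc1 and 0.15 for Nos2. It was 0.05 for Sat1, 0.07 for Asl and 0.10 for Srm. The simulated rates are therefore not rates for single members. Ccl2, with an SD of 0.28 in KO medium, gave 0.71 in that comparison and was not called (limma adjusted p = 0.0812). The number of arrays limits the precision.

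All 10 members were named in every comparison, with up to 4 genes of each pathway list with the smallest p in each of 3 comparisons, and the 5 genes most correlated with Arg1. Nos1 was named in addition in SCR medium against normal medium, as a nitric oxide synthase gene. Members and lists were chosen with earlier results of these data known. Alternatives were other filters, normalizations, variance models and array weights, the mean of a gene's probe sets, the replicate number as a block, the 6 arrays of a comparison alone, each array left out in turn, and a fold of at least 1.5.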

Additional observations from a re-analysis of the deposited data

How the results depend on the processing

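Of 882 member values under alternatives, 831 kept direction and call, 31 lost a call, 4 gained one and 16 changed sign, none of which had passed the test. With a fold of at least 1.5 required, members changed fell to 2 in SCR medium against normal medium, 3 in KO medium against normal medium and 1 in SCR medium with CSH against normal medium. Without a filter, and with 6 arrays alone, 1 member (Arg1) remained in KO medium against SCR medium, and with 6 arrays alone 1 remained in KO medium against SCR medium with CSH. Leaving out single arrays gave 3 to 6 members in SCR against normal medium, 1 to 2 in KO against SCR and 5 to 6 in KO against normal. Causes were not tested.

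The labels do not say whether the replicate numbers pair the arrays. Same-number pairs from different media correlated at -0.07 to 0.29 (median 0.07) in their deviations from the group means. Pairs of different number correlated at -0.23 to 0.21 (median -0.05), and 5 of 12 arrays correlated best with their own number. These values do not settle whether the arrays are paired. With the replicate block, 4 members passed the test in SCR against normal medium, 2 in KO against SCR, 0 in SCR with CSH against SCR, 5 in KO against normal, 5 in SCR with CSH against normal and 2 in KO against SCR with CSH. The calls not made with it were Asl in SCR against normal medium (0.16, adjusted p = 0.106) and Srm in KO against normal medium (0.23, adjusted p = 0.0662).

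Signs turned for Nos2 in KO against SCR medium (-0.079 with array weights, -0.015 with the block, -0.078 to 0.21 without single arrays) and for Srm (0.023 with weights, -0.085 to 0.04 without single arrays). In SCR medium with CSH against SCR medium they turned for Odc1 (0.038 with weights, 0.049 with the block), Sat1 (-0.0033 with weights, -0.0067 to 0.028 without single arrays) and Nos2 (-0.13 to 0.10). In KO medium against SCR medium with CSH, Nos2 ran from -0.052 to 0.23, Asl from -0.058 to 0.017 and Arg2 from -0.087 to 0.25 without single arrays.

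Array weights were 6.15 for SCR 4, against 0.53 for SCR 1 and 0.39 for SCR 3. All-gene counts moved over 1.5 times with array weights: 376 in KO against SCR (49 in the reported fit), 79 in SCR with CSH against SCR (0) and 654 in KO against SCR with CSH (345). With a fold of at least 1.5 they were 1676 (6371) in SCR against normal, 28 in KO against SCR, 2077 (7082) in KO against normal, 1628 (6497) in SCR with CSH against normal and 72 in KO against SCR with CSH. KO against SCR gave 22 with 6 arrays alone and 20 to 50 without single arrays (20 to 25 without SCR 1, SCR 3, SCR 4, KO 1 or KO 3). KO against SCR with CSH gave 107 to 373 without single arrays, lowest without CSH 2, and 210 without a filter, 574 after quantile normalization, 214 with the block, 162 with 6 arrays alone and 154 after median centring, where 120 were higher and 34 lower, against 219 and 126.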
